A study of Thermothelomyces thermophilus ATCC 42464 with 8 samples.

Results

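DF1501 is a strain of the thermophilic fungus Myceliophthora thermophila in which d-xylose was rerouted into the Weimberg pathway. Its transcriptome was compared with that of its starting strain JG207 across all genes, on 4 of the 8 libraries of the study, 2 from DF1501 and 2 from JG207. The members were taken by strain label, and rows of the count table without a gene ID were left out. All libraries come from mycelium precultured for 24 h with glucose and then held for 4 h with d-xylose.

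DF1501 lacks Mtxyl1, the d-xylose reductase gene, and overexpresses Mtxyd1, xylD, BxxylX and KsaD. DF1406 lacks Mtxyl1 and overexpresses Mtxyd1, xylD, xylX and xylA, DF1102 lacks Mtxyl1 alone, and JG207 has Mtxyl1. JG207 itself overexpresses Aomae (a malate transporter) and Aopyc (pyruvate carboxylase), and all of these strains carry both. In DF1501 the pathway genes were inserted at random and in several copies under constitutive promoters, tef for Mtxyd1 and KsaD, gpdA for xylD and eif for BxxylX. It is 1 named strain, so the pathway and the places of insertion cannot be told apart. Reads of Mtxyd1 come from the native gene and the added copies together, and the bacterial genes were not analysed here.

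Fungi usually take up d-xylose by the oxo-reductive route, in which a reductase makes xylitol, a dehydrogenase makes d-xylulose and a kinase sends d-xylulose 5-phosphate into the pentose phosphate pathway. The Weimberg pathway, best known from bacteria, oxidises d-xylose to d-xylonate instead. Dehydratases then remove water and a last dehydrogenase gives α-ketoglutarate, an intermediate of the TCA cycle, so that the carbon enters below glycolysis. Mtxyd1 encodes the first enzyme, d-xylose dehydrogenase, xylD and BxxylX the dehydratases, and KsaD the dehydrogenase that makes α-ketoglutarate.

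The libraries held between 20727346 and 21408353 reads counted in genes. Levels are given as RPKM, the reads scaled to gene length and to the counted reads of the library. Whether same-strain libraries were grown as separate cultures is not given in the sources used here, so the p-values rest on the spread between these samples alone, and that spread may be technical. Nor do they name the strand setting of the counting, so overlapping genes of opposite strand may share reads. The test is edgeR's quasi-likelihood test on counts of all 8 libraries, with Benjamini-Hochberg adjustment over 8335 tested genes. Calls of higher or lower genes needed an adjusted p no larger than 0.05, with a minimum fold of 2 in the comparison with JG207 and of 1.5 in those with DF1102 and DF1406. Where a gene is said to match a protein, that protein is its best hit in Saccharomyces cerevisiae.

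The libraries of DF1501 stood apart from each other more than those of any other strain. Among genes of at least 10 CPM (counts scaled to library size) in either library, 103 were at least 2-fold higher in library 1 and 31 in library 2, which is 2.05% of 6541 genes. The same count gave 5 and 5 genes in DF1406, 3 and 1 in DF1102, and 34 and 5 in JG207, or 0.154%, 0.0623% and 0.604%. Library 1 lay at a root mean square distance in log2 CPM of 0.412 and 0.388 from the libraries of DF1406, 0.575 and 0.605 from those of DF1102, and 0.703 and 0.758 from those of JG207. Library 2 lay at 0.511 and 0.540 from DF1406, 0.713 and 0.730 from DF1102, and 0.530 and 0.572 from JG207. Library 1 was thus nearest to a library of DF1406, and library 2 was nearest to library 1, at 0.404. The root mean square deviation of a library from its strain mean was 0.202 in DF1501 and 0.137 to 0.155 in the others. The fit holds a single spread per gene for all strains, so tests with DF1501 may use too small a spread.

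**Figure D1:**
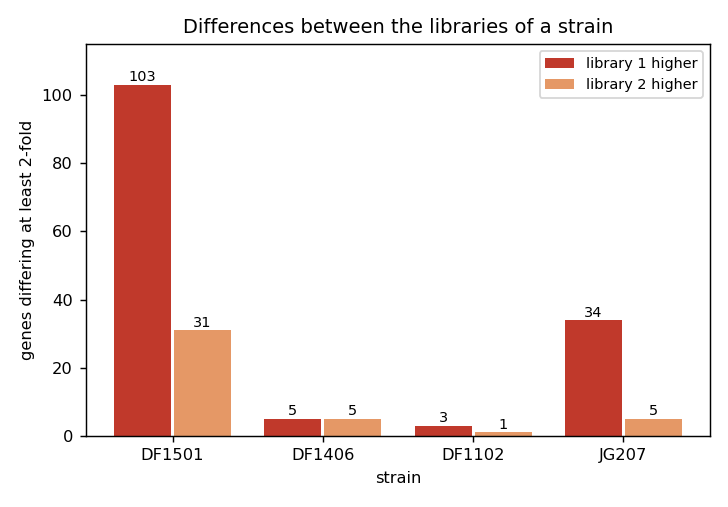
Number of genes (y axis) that differed at least 2-fold between the libraries of each strain (x axis), among genes of at least 10 CPM in either library. Dark bars count genes higher in library 1 and light bars genes higher in library 2. The bars of DF1501 reach 103 and 31, against 34 and 5 or fewer in the other strains.

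The gene with the largest gap was MYCTH_80233, which has no description, at 59.5 and 5.04 RPKM in DF1501 and 0.393 and 0.287 RPKM in JG207. Both libraries of DF1501 were above both of JG207, and they differed by 3.63 on the log2 scale. MYCTH_100068, a xylanase of family GH11, followed at 595 and 54.0 RPKM in DF1501 and 0.344 and 0.335 RPKM in JG207. MYCTH_2094591, which matches a quinone oxidoreductase, stood at 34.8 and 3.46 RPKM in DF1501 and 1.18 and 1.44 RPKM in JG207. MYCTH_2308874 stood at 26.6 and 3.69 RPKM in DF1501 and 0.349 and 0.596 RPKM in JG207, and MYCTH_49700 at 24.0 and 3.36 RPKM in DF1501 and 0.786 and 0.830 RPKM in JG207. In each of these 5 genes library 2 lay between library 1 and JG207. MYCTH_2295409 differed, at 7.16 and 1.13 RPKM in DF1501 and 1.502 and 1.504 RPKM in JG207, with library 2 below JG207.

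In the other direction, library 2 of DF1501 was near JG207 for several of the largest gaps. MYCTH_61507, which matches a glutathione conjugate transporter of the vacuole, stood at 2.61 and 14.2 RPKM in DF1501 and 19.2 and 16.8 RPKM in JG207. MYCTH_53288 stood at 9.73 and 53.0 RPKM in DF1501 and 52.9 and 56.1 RPKM in JG207, and MYCTH_2299830 at 4.08 and 21.8 RPKM in DF1501 and 17.5 and 21.9 RPKM in JG207. In these last 2 genes library 2 lay within the range of JG207 while library 1 was lower. MYCTH_94536, which matches a chitinase, stood at 5.35 and 22.8 RPKM in DF1501 and 14.4 and 13.9 RPKM in JG207, so its libraries lay on either side of JG207. MYCTH_2303328 did the same, at 4.68 and 20.2 RPKM in DF1501 and 13.5 and 10.3 RPKM in JG207. MYCTH_2311687 stood at 14.5 and 50.7 RPKM in DF1501 and 103 and 112 RPKM in JG207.

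Of the 103 genes higher in library 1, 57 were within 2-fold of the JG207 mean in library 2, and 25 were so in library 1. Of the 31 genes higher in library 2, 22 were within 2-fold of JG207 in library 2 and 4 in library 1. Among the gene lists used below, the 103 genes held 12 of 45 glycoside hydrolases and 4 of 52 genes of the peroxisome and β-oxidation. The genes higher in library 2 held 0 and 1 of these. Of all 6541 genes of at least 10 CPM, 2.05% differed so in either direction. In the proteasome list of 31 genes, 2 were higher in library 1 and 0 in library 2. Every other list had at most 1 gene in each direction. What sets the libraries apart was not tested.

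Of 8335 genes, 391 were higher in DF1501 than in JG207, which is 4.69%, and 108 were lower, which is 1.30%. In all 499 called genes (5.99%) both libraries of DF1501 lay on 1 side of both libraries of JG207, but so did 62.2% of all tested genes. The median log2 fold change was 1.48 over the higher genes and -1.35 over the lower ones, against -0.01 over all tested genes. Taken alone, library 1 differed from the JG207 mean by a median of 1.63 in the higher and -1.48 in the lower genes, and library 2 by 1.27 and -1.13. Library 1 was the higher of the pair in 316 of the 391 higher genes and the lower of the pair in 89 of the 108 lower genes. Both libraries were at least 2-fold from the JG207 mean in 281 of the higher and 63 of the lower genes. With no fold minimum, 976 genes (11.7%) were higher and 797 (9.56%) lower.

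Without library 1 of DF1501 the calls numbered 285 higher and 63 lower, and without library 2 they numbered 502 and 212. Without JG207 replicate 2 there were 258 higher genes, 240 of them among the 391. The named genes below were chosen by a fixed rule of size within lists and over all genes, apart from those marked as chosen once values had been seen.

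**Figure D2:**
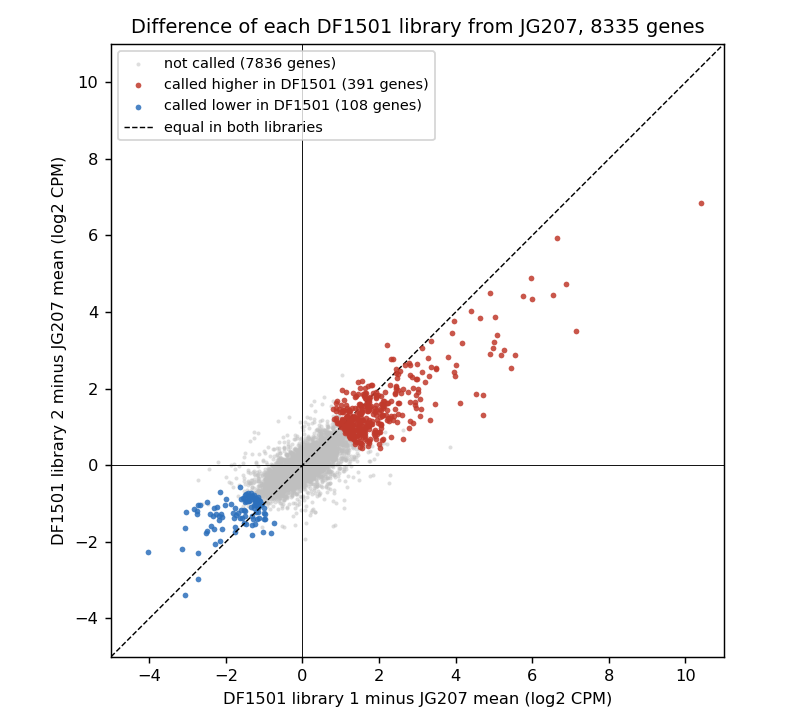
Each point is 1 of 8335 genes, by the difference in log2 CPM between DF1501 library 1 (x axis) or library 2 (y axis) and the mean of the JG207 libraries. Red points are the 391 genes called higher and blue points the 108 called lower. Most called points lie on the side of the dashed line of equality where library 1 is the farther from JG207.

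The genes of d-xylose catabolism come first, since they were engineered. Mtxyl1 (MYCTH_43671) stood at 252 and 228 RPKM in DF1501 and 1676 and 1773 RPKM in JG207. It was lower in both libraries, with -2.85 as its log2 fold change (standard error, SE, 0.15, adjusted p = 2.16e-05), and reads of the deleted gene thus remained. The table holds 1 count per gene, so where in Mtxyl1 these reads lie was not analysed here. Mtxyd1 (MYCTH_112471) stood at 1947 and 1982 RPKM in DF1501 and 244 and 216 RPKM in JG207, and rose by a log2 fold change of 3.08 (SE 0.21, adjusted p = 4.8e-05). In DF1406, which also overexpresses it, it stood at 4071 and 3639 RPKM, and in DF1102, which carries only the native gene, at 1137 and 1194 RPKM. DF1501 was above DF1102 with a log2 fold change of 0.75 (SE 0.19, adjusted p = 0.0175) and below DF1406 at -1.04 (SE 0.20, adjusted p = 0.0234).

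The later genes of the oxo-reductive route did not pass the fold of 2. Xylitol dehydrogenase, xdh1 (MYCTH_2293953), stood at 953 and 734 RPKM in DF1501 and 515 and 510 RPKM in JG207, a log2 fold change of 0.72 (SE 0.19, adjusted p = 0.0312). d-Xylulokinase, xkia (MYCTH_67060), stood at 185 and 135 RPKM in DF1501 and 80.9 and 91.9 RPKM in JG207, a log2 fold change of 0.89 (SE 0.18, adjusted p = 0.00943), and passed the threshold without DF1501 library 2, at 1.14. Both libraries of DF1501 were above both of JG207 in these 2 genes, and 62.2% of all tested genes had no overlap in either direction. The other annotated d-xylose reductase gene, MYCTH_113236, stood at 142 and 148 RPKM in DF1501 and 118 and 122 RPKM in JG207 (log2 fold change 0.27, adjusted p = 0.0945).

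Of 2 further genes fixed as references, actin (MYCTH_2314852) stood at 440 and 524 RPKM in DF1501 and 496 and 578 RPKM in JG207. These RPKM values overlapped, but in log2 CPM, as used for overlap over all genes, the strains did not. Its log2 fold change was -0.16 (adjusted p = 0.464). The gluconeogenic gene pck (MYCTH_2315623) varied within both strains, at 549 and 271 RPKM in DF1501 and 249 and 133 RPKM in JG207. Its log2 fold change of 1.09 (adjusted p = 0.073) did not pass the test, but it did so without DF1501 library 2, at 1.54, and without JG207 replicate 1, at 1.70. It was 0.44 without DF1501 library 1.

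Many genes of plant cell wall breakdown were higher in DF1501. Of 45 glycoside hydrolase (GH) genes, whose products cut the bonds between sugars, 31 were higher than in JG207 and 0 lower. The median log2 fold change was 1.42, and over all tested genes 4.69% were higher and 1.30% lower. The study chose the GH list, and those of the auxiliary enzymes, transporters and regulators, on these samples, so the counts are not independent evidence of direction. GH genes held 1.83% and 0.999% of all counts in DF1501, 2.84% and 2.61% in DF1406, 2.52% and 2.46% in DF1102, and 0.411% and 0.392% in JG207. Both libraries of DF1501 lay between JG207 and the other strains, and library 2 lay lower than library 1. Library 1 was above library 2 in 40 of the 45 genes, and the calls numbered 24 without library 1 and 37 without library 2.

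The families that act on hemicellulose (GH10, GH11, GH43, GH51, GH62, GH67 and GH115) held 13 higher genes of 15, at a median log2 fold change of 2.35. In these the gap between the libraries was wide, with a median of 2.80 over JG207 in library 1 and 1.63 in library 2. The families that act on cellulose and β-glucosides held 7 higher genes of 12, at a median of 1.11, and the chitin and chitosan families GH18 and GH75 had 4 of 4, at a median of 1.58. The other families had 7 of 14, at a median of 1.01.

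The most abundant of the GH genes named here was the GH11 endoxylanase gene MYCTH_89603, at 6520 and 1093 RPKM in DF1501 and 318 and 266 RPKM in JG207, a log2 fold change of 3.72 (SE 0.69, adjusted p = 0.00732). The fold was 1.86 without library 1, 4.51 without library 2, and the call was lost without JG207 replicate 2 (3.55, adjusted p = 0.0677). MYCTH_100068, the GH11 gene with the gap described above, had the highest fold of all genes, with a log2 fold change of 9.91 (SE 1.33, adjusted p = 0.00143), 7.25 without library 1 and 10.79 without library 2. A further GH11 gene, MYCTH_49824, stood at 266 and 44.5 RPKM in DF1501 and 5.95 and 5.53 RPKM in JG207, at 4.78 on the log2 scale, 2.91 without library 1 and 5.57 without library 2. These 3 endoxylanase genes, whose products cut the xylan backbone, were all at least 5-fold higher in library 1 than in library 2.

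The gap between the libraries varied among other hemicellulase genes, which were chosen after their values were seen. The GH10 endoxylanase gene MYCTH_116553 stood at 1466 and 990 RPKM in DF1501 and 271 and 240 RPKM in JG207, a log2 fold change of 2.26 (SE 0.24, adjusted p = 0.000405). The GH43 gene MYCTH_39555 stood at 1731 and 1097 RPKM in DF1501 and 456 and 390 RPKM in JG207 (log2 fold change 1.74, adjusted p = 0.00276). The GH115 gene MYCTH_2308362 stood at 365 and 251 RPKM in DF1501 and 60.0 and 60.7 RPKM in JG207 (log2 fold change 2.35, adjusted p = 0.000237). Among these last 3 genes the calls held whichever library was left out. The GH10 gene MYCTH_112050, at 578 and 215 RPKM in DF1501 and 41.6 and 34.9 RPKM in JG207, had a log2 fold change of 3.38, or 2.45 without library 1. The GH67 gene MYCTH_96141, of a family of α-glucuronidases, stood at 183 and 79.5 RPKM in DF1501 and 25.5 and 23.5 RPKM in JG207, at 2.43, or 1.66 without library 1. The arabinofuranosidase family GH62 had 1 gene, MYCTH_98003, at 43.0 and 8.15 RPKM in DF1501 and 2.43 and 2.53 RPKM in JG207, at 3.39. It was at 1.68 without library 1 and 4.15 without library 2, and lost the call without JG207 replicate 1 (adjusted p = 0.0538) or 2 (adjusted p = 0.0733).

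For cellulose, the GH7 gene MYCTH_109566, of a family of cellobiohydrolases and endoglucanases, stood at 123 and 75.8 RPKM in DF1501 and 34.5 and 25.0 RPKM in JG207. It was higher with a log2 fold change of 1.73 (SE 0.28, adjusted p = 0.00356), and was chosen after its values were seen. The gene of the trehalase family GH37, MYCTH_75490, which acts on the storage sugar trehalose and not on the plant wall, stood at 288 and 288 RPKM in DF1501 and 39.0 and 47.9 RPKM in JG207. It rose in both libraries alike, at 2.73 (SE 0.16, adjusted p = 3.42e-05).

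Of 8 auxiliary activity (AA) genes, whose redox enzymes help the hydrolases, 7 were higher and 0 lower, at a median log2 fold change of 1.43. The count was 2 without DF1501 library 1, 8 without library 2, and 4 without JG207 replicate 1 or without JG207 replicate 2. MYCTH_81925 did not share the gap between the libraries, at 17.0 and 17.8 RPKM in DF1501 and 5.33 and 5.19 RPKM in JG207 (log2 fold change 1.72, adjusted p = 0.000157). MYCTH_110651, of the copper-dependent monooxygenase family AA9, stood at 5.53 and 1.44 RPKM in DF1501 and 0.108 and 0.140 RPKM in JG207, at a log2 fold change of 4.78. That fold was 3.46 without library 1 and 5.47 without library 2, and the call was lost without JG207 replicate 2 (adjusted p = 0.0502). MYCTH_112089, at 1.98 and 0.779 RPKM in DF1501 and 0.242 and 0.0943 RPKM in JG207, had a log2 fold change of 3.00 that lost its call without JG207 replicate 1 (3.86) or 2 (2.43) or DF1501 library 1 (2.14).

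Regulators of these genes in filamentous fungi include xyr-1, an activator of xylanase and d-xylose genes, and clr-1 and clr-2, activators of cellulase genes in Neurospora crassa. All 3 were higher in DF1501, with little difference between its libraries. For xyr-1 (MYCTH_2310145) the levels were 22.2 and 21.7 RPKM in DF1501 and 6.14 and 8.31 RPKM in JG207, a log2 fold change of 1.60 (SE 0.13, adjusted p = 0.000107). For clr-1 (MYCTH_2298863) they were 49.3 and 54.6 RPKM in DF1501 and 16.3 and 21.4 RPKM in JG207 (log2 fold change 1.46, adjusted p = 0.000318). For clr-2 (MYCTH_38704) they were 4.12 and 5.09 RPKM in DF1501 and 1.70 and 1.73 RPKM in JG207 (log2 fold change 1.41, adjusted p = 0.0014). The fourth gene, clr-4 (MYCTH_2296492), stood at 59.2 and 68.2 RPKM in DF1501 and 38.4 and 44.5 RPKM in JG207, at 0.61 (adjusted p = 0.00665), below the fold of 2.

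Of 19 sugar transporter genes, 15 were higher than in JG207 and 0 lower, against 4.69% and 1.30% of all genes. The median log2 fold change was 1.74. Here the libraries of DF1501 were alike, with medians of 1.62 and 1.68 over JG207, and the calls numbered 13 without library 1 and 15 without library 2. MYCTH_84164, which matches the hexose transporter family, stood at 60.1 and 37.1 RPKM in DF1501 and 2.56 and 2.30 RPKM in JG207, a log2 fold change of 4.32 (SE 0.29, adjusted p = 4.8e-05). MYCTH_108044, which matches a low-glucose sensor of the plasma membrane, stood at 3.21 and 2.46 RPKM in DF1501 and 0.177 and 0.459 RPKM in JG207, at 3.14 (adjusted p = 0.0032), or 3.92 without JG207 replicate 2. MYCTH_2307233, of the hexose transporter family, stood at 70.5 and 59.8 RPKM in DF1501 and 11.4 and 7.19 RPKM in JG207, at 2.79 (adjusted p = 0.00022). As in all 499 called genes, the libraries of DF1501 and JG207 did not overlap in these 3.

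More abundant genes of the transporter list, chosen after their values were seen, rose by smaller folds. MYCTH_2308157, which matches a high-glucose sensor of the plasma membrane, was the most abundant. It stood at 2560 and 2158 RPKM in DF1501 and 759 and 648 RPKM in JG207, a log2 fold change of 1.74 (SE 0.23, adjusted p = 0.00148). MYCTH_114107, which matches a glycerol proton symporter, stood at 636 and 653 RPKM in DF1501 and 89.3 and 118 RPKM in JG207, at 2.63 (adjusted p = 6.18e-05). MYCTH_96047 stood at 648 and 609 RPKM in DF1501 and 128 and 145 RPKM in JG207, at 2.20 (adjusted p = 4.84e-05). Their calls held whichever library was left out.

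**Figure D3:**
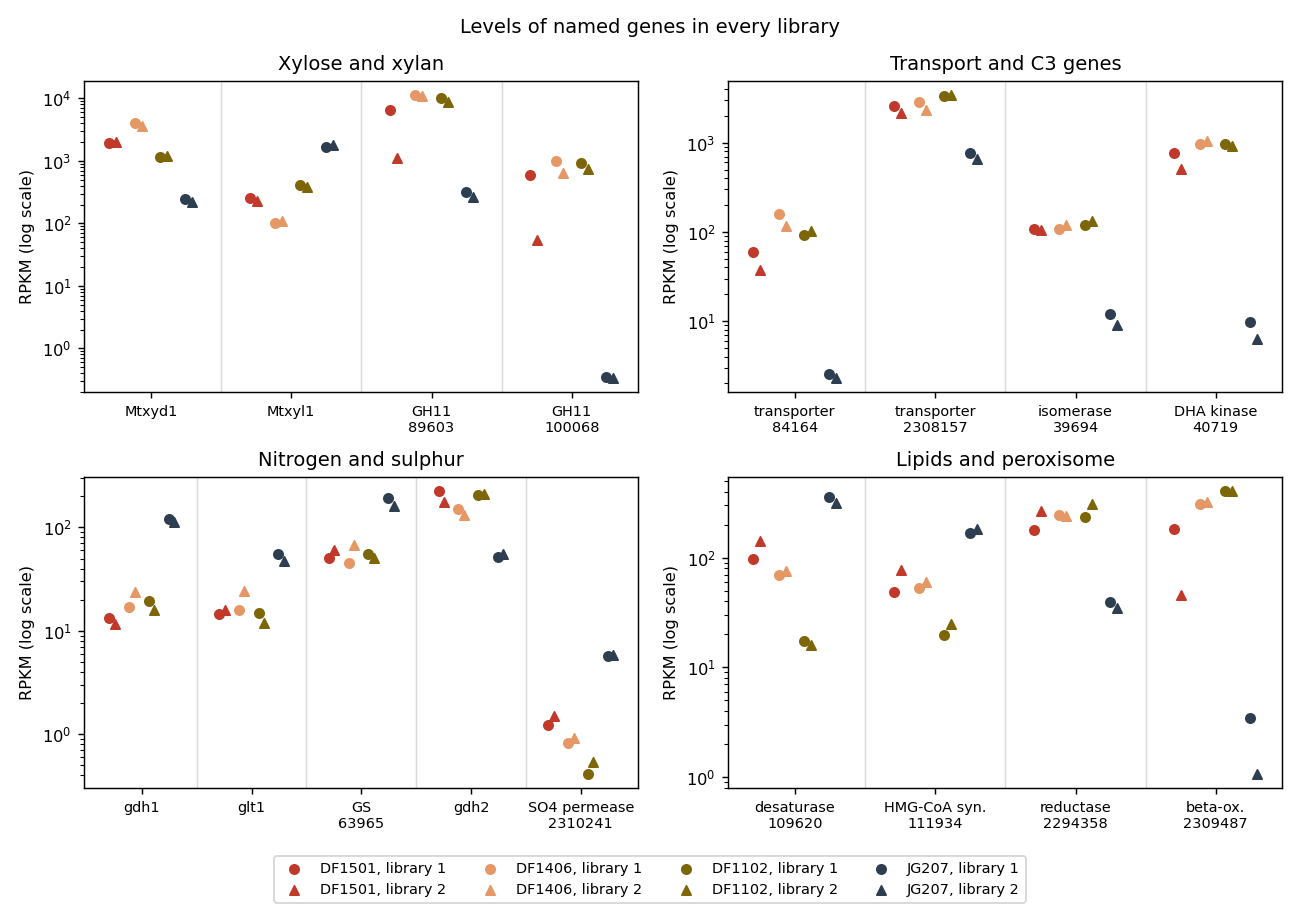
Level of named genes (RPKM, log scale, y axis) in every library of DF1501, DF1406, DF1102 and JG207, with circles for library 1 and triangles for library 2. Numbers under a gene are the digits of its MYCTH ID. The DF1501 points of the GH11 genes are far apart, at 6520 and 1093 for MYCTH_89603, while those of Mtxyd1 and the isomerase gene nearly coincide.

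Over all genes, the highest folds with at least 10 CPM included that of MYCTH_40719, which matches dihydroxyacetone kinase. It stood at 776 and 506 RPKM in DF1501 and 9.82 and 6.34 RPKM in JG207, and rose by a log2 fold change of 6.30 (SE 0.35, adjusted p = 2.16e-05). Dihydroxyacetone kinase makes the glycolytic intermediate dihydroxyacetone phosphate. From the lists of glycolysis and carbohydrate storage, 2 further genes had lower folds. MYCTH_39694, which matches triose phosphate isomerase, the enzyme that turns that intermediate over, stood at 107 and 105 RPKM in DF1501 and 12.1 and 9.15 RPKM in JG207, at 3.30 (SE 0.17, adjusted p = 2.16e-05). Glycerol kinase, by the match of MYCTH_53508, stood at 25.9 and 27.5 RPKM in DF1501 and 6.26 and 7.89 RPKM in JG207, at 1.91 (adjusted p = 5.59e-05). All 3 genes rose in both libraries and kept their calls whichever library was left out.

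The others among the highest folds differed more between the libraries of DF1501. MYCTH_2066457, without a description, stood at 3011 and 731 RPKM in DF1501 and 30.6 and 22.7 RPKM in JG207, at a log2 fold change of 6.15, 4.73 without library 1 and 6.85 without library 2. MYCTH_80233, described above, was at 6.58, 3.83 without library 1 and 7.47 without library 2, and its call was lost without JG207 replicate 2 (6.31, adjusted p = 0.0689). MYCTH_89872, without a description, stood at 1033 and 528 RPKM in DF1501 and 21.3 and 13.3 RPKM in JG207, at 5.49 (adjusted p = 5.5e-05), or 4.88 without library 1. In these 3 genes, as in all 499 called genes, the libraries of the strains did not overlap, but the size of the fold depended on the library.

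MYCTH_2309487, which matches the multifunctional enzyme of peroxisomal β-oxidation, stood at 183 and 45.8 RPKM in DF1501 and 3.48 and 1.07 RPKM in JG207, with a log2 fold change of 5.66 (SE 0.73, adjusted p = 0.00119). Its fold lay between 4.29 without DF1501 library 1 and 6.83 without JG207 replicate 1, with 6.36 without DF1501 library 2 and 5.003 without JG207 replicate 2. MYCTH_2301625, which matches an oxidoreductase of lipid particles, stood at 1826 and 781 RPKM in DF1501 and 50.5 and 24.0 RPKM in JG207, at 5.12, 4.33 without DF1501 library 1 and 5.85 without JG207 replicate 1. MYCTH_2129843, without a description, stood at 200.2 and 67.9 RPKM in DF1501 and 4.80 and 1.71 RPKM in JG207, at 5.37, between 4.34 without DF1501 library 1 and 6.36 without JG207 replicate 1, with 5.98 without DF1501 library 2 and 4.76 without JG207 replicate 2.

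Mtxyl1 is described above, and the nitrogen and sulphate genes that fell are described below. MYCTH_2308313, without a description, had the highest level in JG207 of the genes called lower. It stood at 1836 and 3433 RPKM in DF1501 and 10825 and 9073 RPKM in JG207. Its log2 fold change was -1.95 (SE 0.30, adjusted p = 0.00322). MYCTH_2307967, without a description, stood at 35.1 and 102 RPKM in DF1501 and 347 and 268 RPKM in JG207, at -2.21, or -3.10 without library 2. MYCTH_88187, which matches a copper transporter, stood at 51.0 and 154 RPKM in DF1501 and 377 and 334 RPKM in JG207, at -1.83 (adjusted p = 0.011), or -2.77 without library 2. In these 3 genes library 1 was farther from JG207 than library 2 was. MYCTH_2313040, without a description, stood at 21.4 and 39.5 RPKM in DF1501 and 119 and 129 RPKM in JG207, at -2.04. MYCTH_92449, which matches a zinc-finger transcription factor, stood at 1.93 and 3.24 RPKM in DF1501 and 9.18 and 11.03 RPKM in JG207, at -1.98.

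In central carbon metabolism most genes did not pass the test. Of 19 glycolysis genes 3 were higher and 0 lower, with a median log2 fold change of -0.24, and without JG207 replicate 2 the count was 1 higher and 1 lower. Over all tested genes, 4.69% were higher and 1.30% lower. At any fold, 3 glycolysis genes were higher and 4 lower by adjusted p, against 11.7% and 9.56% of all tested genes. The glycolysis genes held 1.29% and 1.45% of all counts in DF1501, and 2.10% and 1.88% in JG207. These lists of central metabolism also come from the study. Besides the isomerase, the higher glycolysis genes matched fructose bisphosphatase, MYCTH_2306943, and aldolase, MYCTH_2298452. Fructose bisphosphatase catalyses a step particular to gluconeogenesis and stood at 163 and 82.1 RPKM in DF1501 and 44.3 and 27.95 RPKM in JG207. Its log2 fold change of 1.76 (adjusted p = 0.00887) was 1.13 without library 1 and lost its call without JG207 replicate 2 (1.42, adjusted p = 0.0683). Aldolase stood at 483 and 381 RPKM in DF1501 and 236 and 180 RPKM in JG207, at 1.04, and lost its call without JG207 replicate 2 (0.81) or DF1501 library 1 (0.83).

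Isocitrate lyase, the first enzyme of the glyoxylate cycle, by the match of MYCTH_110871, stood at 89.5 and 52.9 RPKM in DF1501 and 16.7 and 15.99 RPKM in JG207. It rose by a log2 fold change of 2.12 (SE 0.27, adjusted p = 0.00103), and the call held whichever library was left out. Malate synthase, its partner, by the match of MYCTH_2298071, stood at 328 and 184 RPKM in DF1501 and 119 and 101 RPKM in JG207. That gene was called at 1.22 (adjusted p = 0.0176), but not without JG207 replicate 2 (1.05, adjusted p = 0.118) or DF1501 library 1 (0.69, adjusted p = 0.0654). They were the 2 called genes of 7 in anaplerosis and the glyoxylate cycle, where 4.69% of all tested genes were higher and 1.30% lower.

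The genes of the TCA cycle, into which the Weimberg pathway feeds, numbered 20, and 0 were higher and 0 lower in edgeR, at a median log2 fold change of -0.21. By adjusted p alone, at any fold, 5 were lower and 0 higher, and 1 was called lower without DF1501 library 2. Over all tested genes, 4.69% were called higher and 1.30% lower, and 11.7% and 9.56% at any fold. An unadjusted p under 0.05 was found for 2 TCA cycle genes above and 6 below JG207. It was found for 3033 of all 8335 tested genes, in either direction. Of 7 genes of the pentose phosphate pathway, which receives the products of the oxo-reductive route, 0 were called, 0 at any fold, at a median of 0.04, with an unadjusted p under 0.05 for 1 above and 1 below. DESeq2 called 0 genes in both lists, and limma with voom quality weights 1 TCA gene as lower. Of 15 genes of carbohydrate storage 2 were higher and 0 lower, at a median of 0.03, and these were the trehalase and glycerol kinase genes given above.

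Among 13 dehydrogenase and transaminase genes, 3 were higher and 0 lower, against 4.69% and 1.30% of all genes. The median log2 fold change was 0.17. The gene with the highest fold, MYCTH_2140820, which matches an aldehyde dehydrogenase, stood at 1800 and 986 RPKM in DF1501 and 145 and 122 RPKM in JG207, at 3.38 (SE 0.31, adjusted p = 0.00022). In DF1102 it stood at 647 and 709 RPKM, and DF1501 was higher there too, at 1.05 (adjusted p = 0.0213). MYCTH_84302, which matches an NADPH-dependent alcohol dehydrogenase, stood at 712 and 340 RPKM in DF1501 and 128 and 132 RPKM in JG207, at 2.03, or 1.35 without library 1. MYCTH_2306298, which matches another alcohol dehydrogenase, stood at 26.3 and 17.6 RPKM in DF1501 and 8.40 and 9.47 RPKM in JG207, at 1.30, and missed the fold of 2 without library 1, at 0.94.

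Among genes with at least 10 CPM, the lowest fold was that of a gene of nitrogen assimilation. The gene gdh1 (MYCTH_2090554), of the NADPH-dependent glutamate dehydrogenase that makes glutamate from α-ketoglutarate and ammonium, stood at 13.4 and 11.6 RPKM in DF1501 and 121 and 113 RPKM in JG207. It fell in both libraries, with a log2 fold change of -3.24 (SE 0.20, adjusted p = 3.42e-05). The other route to glutamate runs over glutamine synthetase and glutamate synthase, and both of these fell too. Glutamate synthase, glt1 (MYCTH_2312662), stood at 14.6 and 15.9 RPKM in DF1501 and 54.8 and 46.8 RPKM in JG207, at -1.75 (adjusted p = 0.000898). Glutamine synthetase, by the match of MYCTH_63965 and chosen after its values were seen, stood at 50.4 and 60.1 RPKM in DF1501 and 193 and 160 RPKM in JG207, at -1.69 (adjusted p = 0.000861).

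The enzyme of the opposite direction, the NAD-dependent glutamate dehydrogenase that returns α-ketoglutarate and ammonium, is encoded by gdh2 (MYCTH_2304566). It rose, at 225 and 177 RPKM in DF1501 and 51.2 and 55.0 RPKM in JG207, by a log2 fold change of 1.92 (SE 0.17, adjusted p = 0.000177). These 4 calls held whichever library was left out, and the libraries of DF1501 were close together in all 4 genes. Of 39 genes of amino acid biosynthesis 2 were higher and 4 lower, at a median log2 fold change of -0.38, and 7 were lower without DF1501 library 2. Over all tested genes, 4.69% were higher and 1.30% lower. By adjusted p alone, at any fold, 2 of the list were higher and 17 lower, against 11.7% and 9.56% of all tested genes. The other 2 called genes of the list were chosen after their values were seen, and both act in proline synthesis. MYCTH_2300236, which matches glutamyl phosphate reductase, stood at 99.3 and 97.8 RPKM in DF1501 and 45.6 and 48.5 RPKM in JG207, at 1.06. MYCTH_2109970, which matches the last enzyme of that route, stood at 15.9 and 20.4 RPKM in DF1501 and 35.3 and 37.9 RPKM in JG207, at -1.02, and missed the fold of 2 without JG207 replicate 1 (-0.998) or DF1501 library 1 (-0.88).

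The lists of amino acid uptake and of the vacuole each had a single called gene, against 4.69% higher over all tested genes. Of 10 amino acid permease genes 1 was higher and 0 lower, MYCTH_2316511, which matches the general amino acid permease. It stood at 165 and 149.6 RPKM in DF1501 and 44.4 and 53.7 RPKM in JG207, at a log2 fold change of 1.68 (adjusted p = 0.00039). Of 70 genes of autophagy and the vacuole 1 was higher and 0 lower, MYCTH_2303011, which matches vacuolar proteinase B, at 716 and 530.2 RPKM in DF1501 and 133 and 143 RPKM in JG207 (log2 fold change 2.18, adjusted p = 0.000364). Without DF1501 library 2 that list had 2 higher and 1 lower.

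Sulphur assimilation held 4 lower genes, which were all the calls among 33 genes of one-carbon and sulphur metabolism, at a median log2 fold change of -0.18. Over all tested genes, 1.30% were lower and 4.69% higher. Without JG207 replicate 1 or DF1501 library 1, 1 gene of the list was called higher. In this route sulphate is taken up, activated and reduced to sulphide, the sulphur of cysteine and methionine. The sulphate permease gene MYCTH_2310241 stood at 1.24 and 1.4997 RPKM in DF1501 and 5.74 and 5.88 RPKM in JG207, a log2 fold change of -2.10 (SE 0.18, adjusted p = 0.00015). MYCTH_2298133, which matches the reductase of activated sulphate, stood at 64.6 and 56.8 RPKM in DF1501 and 135 and 185 RPKM in JG207, at -1.40 (adjusted p = 0.00309). MYCTH_2306300, which matches a sulphite reductase subunit, stood at 12.5 and 11.3 RPKM in DF1501 and 25.6 and 30.9 RPKM in JG207, at -1.25 (adjusted p = 0.00271). In these 3 genes of the route, as in all 499 called genes, the libraries of the strains did not overlap. MYCTH_2297319, chosen after its values were seen, matches an enzyme that makes the siroheme of sulphite reductase. It stood at 21.6 and 17.4 RPKM in DF1501 and 51.4 and 38.6 RPKM in JG207, at -1.22, and missed the fold of 2 without JG207 replicate 1, at -0.91.

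Lipid genes were called in both directions. Of 34 genes of fatty acid and sterol synthesis 3 were lower and 2 higher, at a median log2 fold change of -0.16. Over all tested genes, 1.30% were lower and 4.69% higher. By adjusted p alone, at any fold, 10 of the 34 were lower and 3 higher, against 9.56% and 11.7% of all tested genes. MYCTH_109620, which matches a fatty acid desaturase, stood at 97.6 and 142 RPKM in DF1501 and 359 and 313 RPKM in JG207, at -1.51 (SE 0.17, adjusted p = 0.000615). In DF1406 it stood at 69.6 and 75.2 RPKM and in DF1102 at 17.3 and 16.1 RPKM, so DF1501 was above DF1102, at 2.83 (SE 0.18, adjusted p = 5.49e-05). MYCTH_111934, which matches HMG-CoA synthase of sterol synthesis, stood at 48.3 and 76.5 RPKM in DF1501 and 169 and 182 RPKM in JG207, at -1.51 (adjusted p = 0.00117). MYCTH_115501, of the same list and chosen after its values were seen, matches a mitochondrial enzyme with a possible role in fatty acid synthesis. It stood at 30.0 and 40.6 RPKM in DF1501 and 66.1 and 79.5 RPKM in JG207. Its log2 fold change of -1.06 missed the fold of 2 without JG207 replicate 2 (-0.98) or DF1501 library 1 (-0.88).

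Both genes called higher in that list, MYCTH_108317 and MYCTH_55132, also match a mitochondrial enzyme of fatty acid synthesis and were low in DF1501. MYCTH_108317 stood at 0.777 and 0.507 RPKM in DF1501 and 0.280 and 0.252 RPKM in JG207, at a log2 fold change of 1.27. Its call was lost without JG207 replicate 2 (1.14) or DF1501 library 1 (0.89), and that of MYCTH_55132, at 1.89, without JG207 replicate 2 (1.77). Neither call remained in that setting, and 0 of the list were then higher.

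Genes of the peroxisome and β-oxidation, the route that breaks fatty acids down, were more often higher than lower. Of 52 genes tested 12 were higher and 1 lower, at a median log2 fold change of 0.33, against 4.69% and 1.30% of all genes. The number of higher genes was 8 without DF1501 library 1 and 16 without library 2. MYCTH_2294358, which matches a peroxisomal dienoyl-CoA reductase, stood at 179.9 and 266 RPKM in DF1501 and 39.3 and 34.9 RPKM in JG207, at 2.57 (SE 0.20, adjusted p = 0.000107). MYCTH_2127410, with the same match, stood at 2.60 and 2.43 RPKM in DF1501 and 0.0603 and 0.0588 RPKM in JG207, at 5.23 (SE 0.51, adjusted p = 0.000303). These 2 calls held whichever library was left out. The 1 lower gene, MYCTH_2064803, chosen after its values were seen, was low in both strains, at 0.169 and 0.283 RPKM in DF1501 and 1.13 and 1.10 RPKM in JG207. Its log2 fold change of -2.27 lost its call without JG207 replicate 1 (adjusted p = 0.0551), JG207 replicate 2 (adjusted p = 0.0555) or DF1501 library 1 (adjusted p = 0.0734).

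Genes of growth and protein synthesis were nearly without calls, but the medians of several lists lay below that of all genes. Of 67 cytosolic ribosomal protein genes 0 were called, yet the log2 fold change was below 0 in all 67, at a median of -0.40. At any fold, 5 were lower with an adjusted p of at most 0.05, and 32 at an unadjusted p under 0.05. Over all 8335 tested genes, 3033 had an unadjusted p under 0.05 in either direction. Library 1 was below library 2 in all 67, with a median of -0.69 from JG207 in library 1 and -0.17 in library 2, and 3 were called lower without library 2. Their share of all counts was 3.20% and 4.81% in DF1501, 3.70% and 3.47% in DF1406, 2.33% and 2.40% in DF1102, and 4.96% and 5.41% in JG207. Library 2 of DF1501 thus came close to JG207, and library 1 lay below DF1406.

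Ribosome biogenesis had 0 calls of 180 genes at a median log2 fold change of -0.40, and here the libraries were alike, at -0.37 and -0.39. At any fold 60 of them were lower and 5 higher, against 9.56% and 11.7% of all genes. At an unadjusted p under 0.05 there were 103 and 7, against 3033 of all 8335 tested genes in either direction. Without JG207 replicate 1 or DF1501 library 2, 2 were called lower. Mitochondrial ribosomal proteins had 0 calls of 60 at a median of -0.35, with 26 lower and 0 higher at any fold, and 42 and 0 at an unadjusted p under 0.05. Of 34 DNA replication genes 1 was higher and 0 lower at a median of -0.51, with 19 lower at any fold and 4 called lower without DF1501 library 2. The 1 higher gene, MYCTH_2299158, which matches a DNA helicase of replication repair, stood at 17.2 and 16.7 RPKM in DF1501 and 8.08 and 7.07 RPKM in JG207 (log2 fold change 1.15, adjusted p = 0.000475). Purine and pyrimidine synthesis had 0 calls of 11 at a median of -0.40, with 6 lower and 1 higher at any fold, and 7 and 1 at an unadjusted p under 0.05. Without DF1501 library 2, 1 of these was called higher.

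In the respiratory chain and ATP synthase list 1 gene of 38 was higher and 0 lower, at a median log2 fold change of -0.29. Over all tested genes, 4.69% were higher and 1.30% lower. By adjusted p alone, at any fold, 1 of the list was higher and 9 lower, against 11.7% and 9.56% of all tested genes. The called gene, MYCTH_82981, matches ATP synthase subunit c, and stood at 752 and 788 RPKM in DF1501 and 368 and 282 RPKM in JG207, at 1.23 (SE 0.18, adjusted p = 0.0025). A second gene with that match, MYCTH_112204, stood at 1028 and 1269 RPKM in DF1501 and 1854 and 2236 RPKM in JG207, at -0.84 (adjusted p = 0.00978), which missed the fold of 2. Genes with the same match thus lay on opposite sides of JG207.

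Stress lists held few calls, where 4.69% of all tested genes were higher and 1.30% lower. Proteasome genes had 0 of 31 and chaperone and heat shock genes 0 of 64, at medians of -0.01 and -0.02, though 2 proteasome genes and 1 chaperone gene were called higher without DF1501 library 2. At any fold 0 proteasome genes passed, against 0 above and 4 below JG207 at an unadjusted p under 0.05. Such an unadjusted p was found for 3033 of all 8335 tested genes, in either direction. Of the chaperones 2 were higher and 5 lower at any fold, and 4 and 11 at an unadjusted p under 0.05. Redox defence had 2 higher and 1 lower of 30, of which 1 higher and 0 lower were left without JG207 replicate 1, JG207 replicate 2 or DF1501 library 1. The gene with a stable call, MYCTH_2124996, matches γ-glutamylcysteine synthetase, the first enzyme of glutathione synthesis. It stood at 76.7 and 74.9 RPKM in DF1501 and 34.1 and 37.7 RPKM in JG207 (log2 fold change 1.08, adjusted p = 0.000389). Translation factors had 0 calls of 36 and secretion, ER and Golgi genes 0 of 37, at medians of -0.08 and -0.20, with 3 above and 8 below JG207, and 1 above and 7 below, at an unadjusted p under 0.05. Without DF1501 library 2, 1 secretion gene was called lower. DESeq2 likewise called 0 genes in each list of growth, protein synthesis and stress with 0 calls above. Of 34 aminoacyl-tRNA synthetase genes 1 was higher, MYCTH_59106, at 24.2 and 8.71 RPKM in DF1501 and 6.79 and 5.50 RPKM in JG207, a log2 fold change of 1.43 (adjusted p = 0.0408). That call was lost without JG207 replicate 1 (1.67), JG207 replicate 2 (1.23) or DF1501 library 1 (0.46).

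**Figure D4:**
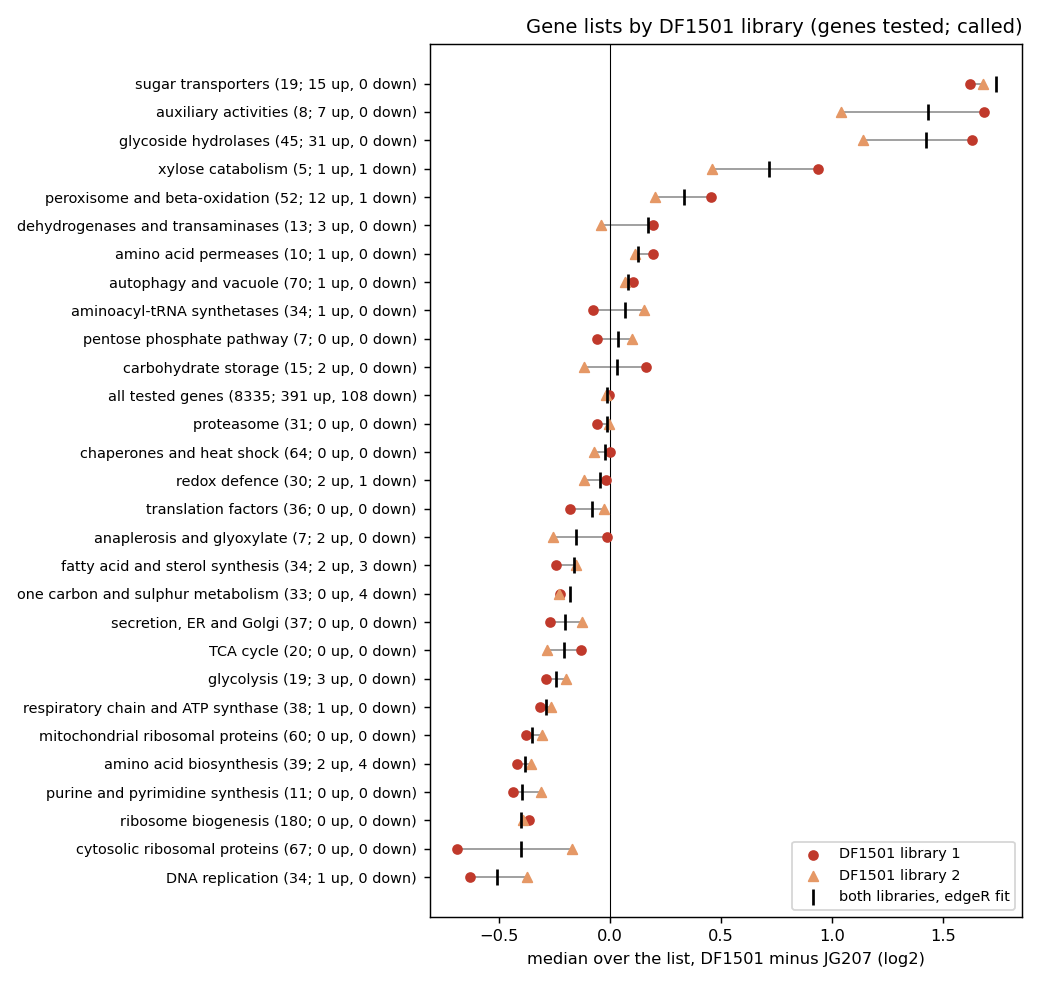
Median log2 difference from JG207 (x axis) over each gene list of at least 5 tested genes (y axis, with the number tested and called higher or lower), for DF1501 library 1 (circles), library 2 (triangles) and the edgeR fit of both (bars). Cytosolic ribosomal proteins, at -0.69 and -0.17, and the glycoside hydrolases, at 1.63 and 1.14, show wide gaps between the libraries, and the sugar transporters nearly none.

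The difference between DF1501 and JG207 combines the deletion with the added pathway, so DF1501 was also set against DF1102, which has the deletion alone. Here 1090 genes (13.1%) were higher and 687 (8.24%) lower in DF1501, or 21.3% in all. Without DF1102 replicate 1 there were 697 higher and 486 lower genes, and without DF1102 replicate 2 there were 707 and 497. Of the 391 genes higher in DF1501 than in JG207, 163 (41.7%) were lower in DF1501 than in DF1102, 38 (9.72%) were higher, and 190 did not pass. Of the 108 genes lower than in JG207, 46 (42.6%) were higher in DF1501 than in DF1102, 4 (3.70%) were lower, and 58 did not pass. The log2 fold change of DF1501 against DF1102 had a median of -0.54 over the 391 genes and 0.61 over the 108. All of these comparisons use the same libraries of DF1501, so the counts are given side by side and are not independent of each other.

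Against DF1406, the other Weimberg strain, 163 genes (1.96%) were higher and 153 (1.84%) lower in DF1501, or 3.79% in all. Of the 391 genes, 67 (17.1%) were lower in DF1501 than in DF1406, 15 (3.84%) were higher and 309 did not pass, at a median log2 fold change of -0.39. Of the 108 genes, 5 (4.63%) were higher, 0 were lower and 103 did not pass, at a median of 0.15. These counts depend strongly on the libraries. Without DF1406 replicate 1 there were 5 higher and 8 lower genes in all, without DF1406 replicate 2 there were 4 and 9, without DF1501 library 1 there were 362 and 430, and without library 2 there were 121 and 75.

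**Figure D5:**
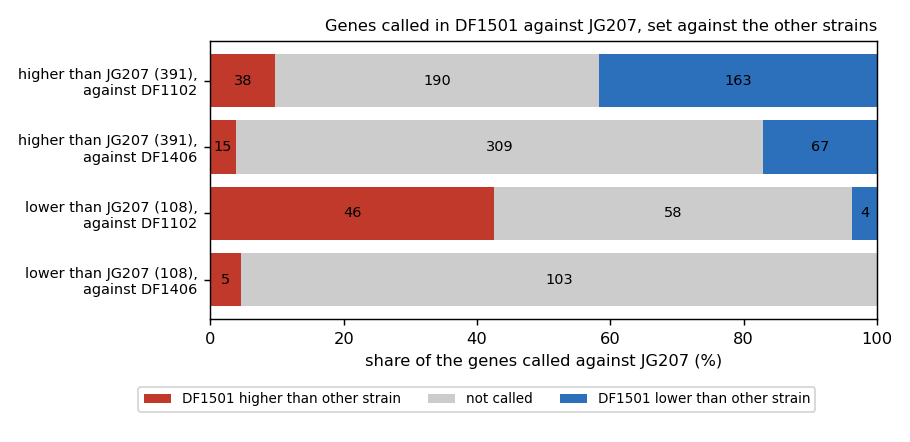
Share (x axis, percent) and number of the 391 genes higher and the 108 genes lower in DF1501 than in JG207 that were higher, not called or lower in DF1501 than in DF1102 or DF1406. Of the 391 genes, 163 were lower than in DF1102 and 67 lower than in DF1406. The smallest segment stands for 4 genes.

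By list, 54 of the 67 cytosolic ribosomal protein genes were higher in DF1501 than in DF1102 and 0 lower, and against DF1406 0 were called. Over all tested genes, 13.1% were higher and 8.24% lower than in DF1102, and 1.96% and 1.84% than in DF1406. Higher than in DF1102 were also 21 of 39 amino acid biosynthesis genes, 18 of 38 of the respiratory chain, 18 of 34 of DNA replication, 8 of 19 of glycolysis, 6 of 20 of the TCA cycle and 4 of 7 of the pentose phosphate pathway, with 0 lower in each. Lower than in DF1102 were 19 of 45 GH genes with 0 higher, 3 of 8 auxiliary activity genes with 0 higher, 12 of 52 peroxisomal genes with 1 higher, and 6 of 19 sugar transporters with 2 higher. Both transporters above DF1102 were chosen after their values were seen. MYCTH_2312740, which matches a myo-inositol transporter, stood at 181 and 159 RPKM in DF1501, 110.02 and 113 RPKM in DF1102 and 59.8 and 52.9 RPKM in JG207. MYCTH_2308979 stood at 52.1 and 66.9 RPKM in DF1501, 35.8 and 34.1 RPKM in DF1102 and 15.8 and 19.04 RPKM in JG207. Their log2 fold changes against DF1102 were 0.61 and 0.76.

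A few genes stood apart in DF1501 from all other strains. MYCTH_2113877, without a description, stood at 22.6 and 22.9 RPKM in DF1501, 5.94 and 5.43 RPKM in DF1406, 5.98 and 5.87 RPKM in DF1102, and 3.43 and 4.60 RPKM in JG207. It was higher at log2 fold changes of 1.93 (adjusted p = 0.000507) against DF1406, 1.94 (adjusted p = 7.58e-05) against DF1102 and 2.50 (adjusted p = 2.16e-05) against JG207. MYCTH_2310363, without a description, stood at 49.9 and 58.0 RPKM in DF1501, 10.5 and 9.77 RPKM in DF1406, 8.63 and 8.31 RPKM in DF1102, and 19.2 and 20.4 RPKM in JG207. It was higher at 2.34 (adjusted p = 0.00013) against DF1406, 2.66 (adjusted p = 1.62e-05) against DF1102 and 1.44 (adjusted p = 0.000142) against JG207. The libraries of DF1501 were close together in both genes and above all 6 others.

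MYCTH_2307937, without a description, was low in DF1501 relative to the other strains that lack Mtxyl1. It stood at 20.5 and 10.9 RPKM in DF1501, 125 and 119.5 RPKM in DF1406, 119 and 118 RPKM in DF1102, and 3.95 and 4.94 RPKM in JG207. Its log2 fold change was 1.83 against JG207, and -3.01 and -2.91 against DF1406 and DF1102, so that it was higher than in JG207 and lower than in both others. Without DF1501 library 1 it was at -3.60 against DF1406. MYCTH_2307942 was more abundant, at 434 and 122 RPKM in DF1501, 3071 and 2788 RPKM in DF1406, 2499 and 2131 RPKM in DF1102, and 64.4 and 81.5 RPKM in JG207. Its log2 fold change was -3.44 against DF1406, -3.03 against DF1102 and 1.95 against JG207. Without DF1501 library 1 these were -4.70, -4.29 and 0.71, and without library 2 they were -2.77, -2.37 and 2.62. The call against JG207 was lost without any 1 of JG207 replicate 1 (adjusted p = 0.0971), JG207 replicate 2 (adjusted p = 0.0946) or DF1501 library 1, and that against DF1406 without either DF1406 library.

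MYCTH_2071684, without a description, had 0 counts in both libraries of JG207 and 8 and 12 counts in those of DF1501. Set against a floor of 3 counts over the group, it was at least 6.78-fold higher in DF1501. It was also the called gene with the lowest level in library 1, at 0.108 and 0.163 RPKM in the libraries of DF1501.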

How the data were processed

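RNA-seq counts of 8 libraries were used, 2 from each strain, of which the 4 of DF1501 and JG207 carry the main comparison. Per the study's methods, SOAPnuke was used for read filtering, TopHat2 2.0.12 for mapping to the published genome and HTSeq 0.13.5 for counting, and the count of each gene was tested as deposited by the authors. The deposited RPKM values are the authors' own and were used for levels. The deposited count column of JG207 replicate 1 ends in 3 rows without a gene ID that hold other values, and these were left out. Of the deposited columns of single libraries, 0 were left unused.

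Counts were fitted in edgeR 4.0.16 (R 4.3.3) with TMM factors between 0.954 and 1.05 and quasi-likelihood F tests, a mean per strain over all 8 libraries, and Benjamini-Hochberg adjustment. The default filter, with a minimum count of 10, kept 8335 of 9110 genes. Standard errors are the absolute log2 fold change over the square root of the F statistic. Differences of single libraries are in log2 CPM with a prior count of 2. A positive log2 fold change is higher in DF1501. Scripts were tested on simulated data.

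Lists came from the study or from words in the S. cerevisiae descriptions, of which the table used here holds 4214 and lacks 23. Members and lists were chosen with earlier results of these data known, and the words were reworded after the descriptions were read. No list was given a test. Named genes are those of d-xylose catabolism, references and regulators, the 3 largest changes of each list, the 8 highest and 8 lowest folds with at least 10 CPM and no overlap, the 6 largest gaps in each direction between the DF1501 libraries, and, of genes called against JG207, the 4 highest and 4 lowest folds against DF1102 and DF1406. Those described are a selection. Alternatives were DESeq2 1.42.0, RLE factors, library size alone, other filters, only the libraries compared, a replicate block, limma 3.58.1 with voom quality weights or on log2(RPKM + 1) and log2(RPKM + 0.1), calls by adjusted p alone, and each library left out in turn.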

Additional observations from a re-analysis of the deposited data

How the results depend on the processing

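Against JG207, 391 genes were higher and 108 lower. With no fold minimum the counts were 976 and 797. Leaving out 1 library gave 258 (without JG207 replicate 2) to 502 (without DF1501 replicate 2) higher and 63 (without DF1501 replicate 1) to 212 (without DF1501 replicate 2) lower. DESeq2 gave 401 and 99, voom with quality weights 344 and 98, and only the 4 libraries compared 313 and 82. Against DF1102, with 1090 higher and 687 lower, leaving out 1 library gave 697 to 1191 higher and 486 to 935 lower, and no fold minimum gave 1358 lower. Against DF1406, with 163 higher and 153 lower, leaving out 1 library gave 4 to 362 higher and 8 to 430 lower, only the 4 libraries compared gave 2 and 1, and DESeq2 gave 263 and 246. There, library size alone gave 286 higher, and limma on RPKM with the filter gave 249 with a pseudocount of 1 and 250 with 0.1. Library size alone thus called 64.0% of the genes higher in place of 51.6%, with a median over all genes of 0.08, and limma 61.8% to 63.5%. Between same-numbered libraries, the correlations of deviations from the strain means lay between -0.223 (DF1501 and DF1406) and 0.169 (DF1102 and JG207). Whether libraries of different strains were paired or shared a batch was not tested. A replicate block gave 387 higher and 104 lower against JG207, 1063 and 689 against DF1102, and 143 and 138 against DF1406. A crossed block of DF1501 and DF1406, chosen after seeing the data, gave 320 and 254. Of 87 called named genes, 60 kept their call under every alternative run and 0 changed direction. The uncalled MYCTH_105197, at a log2 fold change of 0.61, was at -0.29 without DF1501 replicate 1 and 1.17 without DF1501 replicate 2. In the count of genes that differ between the DF1501 libraries, 103 and 31, a minimum of 50 CPM gave 72 and 22 and library size alone 86 and 41. Totals were alike between libraries, and the small number of libraries per strain limits every p-value.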

Other observations

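Called genes were also looked up by their place on the chromosomes, with neighbours taken from the RefSeq annotation of assembly ASM22609v1, in which 8319 of the 8335 tested genes were found. There were 11 runs of at least 3 neighbouring tested genes called in the same direction, all 11 of them higher in DF1501 than in JG207, and the longest held 6 genes. No count expected without clustering was computed. One run of 5 genes held MYCTH_39694, which matches triose phosphate isomerase, MYCTH_89872, MYCTH_40719, which matches dihydroxyacetone kinase, MYCTH_2298452, which matches aldolase, and MYCTH_2086155, which matches a histone methyltransferase. Their log2 fold changes were 3.30, 5.49, 6.30, 1.04 and 1.37, in that order.

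The longest run held MYCTH_2127410, which matches a peroxisomal dienoyl-CoA reductase, and 5 genes without a description, with log2 fold changes between 1.94 and 5.23. A run of 4 held MYCTH_2309487, which matches the multifunctional enzyme of β-oxidation, at 5.66, and MYCTH_54815, which matches a reductase of phospholipid synthesis, at 3.43. Another run of 3 held the sugar transporter gene MYCTH_84164, at 4.32, beside MYCTH_88807, at 4.43, and MYCTH_2139925, at 1.52. A run of 4 genes held MYCTH_2128242, at 3.26, MYCTH_94772, at 3.86, MYCTH_116237, which matches an aryl alcohol dehydrogenase, at 2.99, and MYCTH_2094324, at 1.02. These genes were chosen after their values were seen, and the files do not say where the pathway genes were inserted.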
